A study of Mus musculus with 30 samples.

Results

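The Ink4a/Arf tumor suppressor locus on mouse chromosome 4 was examined through its 3 protein-coding genes, Cdkn2a, Cdkn2b and Mtap. Its members were the ATAC-seq windows whose nearest protein-coding transcription start site in the GENCODE vM21 annotation of GRCm38 lay within 50 kb and belonged to Cdkn2a, Cdkn2b or Mtap. A window is a region, built by the authors from called peaks, in which the reads of every library were counted, so the choice of members used position and no count. The rule found 72 of the 369846 windows in the table of 4 h cultures (14 for Cdkn2a, 9 for Cdkn2b and 49 for Mtap) and 52 of the 305931 windows in the table of 24 h cultures (14, 9 and 29). Member windows were 508 to 2155 bp long at 4 h, with a median of 574 bp.

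ATAC-seq counts DNA fragments cut out by a transposase, which enters open chromatin more readily than closed chromatin. The study treated cultured cells with drugs that alter actin and asked how chromatin accessibility responds. The cells used here were mouse mesenchymal stem cells (MSC), grown as a primary line from the bone marrow of C57BL/6J mice, and NIH 3T3, an established embryonic fibroblast line. At 4 h each cell type had a control group and a group treated with CK666, an inhibitor of the actin-branching Arp2/3 complex. At 24 h MSC had control, CK666 and CytoD groups, CytoD (cytochalasin D) being an inhibitor of actin polymerization. Every group had 3 libraries, and the labels describe all of them as male C57BL/6J, the NIH 3T3 libraries included, although NIH 3T3 is generally described as a line from NIH Swiss embryos. The MSC libraries come from 1 primary line and the NIH 3T3 libraries from 1 established line, so the comparison of the cell types is one of these lines, and nothing in the labels says that libraries of a group came from separate cultures. Libraries transfected with siRNA were not used here. The libraries held 29239381 to 34979833 counts in MSC at 4 h, 14496058 to 27866363 in NIH 3T3 at 4 h and 14071301 to 22352180 in MSC at 24 h.

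Cdkn2a encodes a pair of unrelated tumor suppressors from alternative first exons. The Ink4a transcript gives p16, which holds back the cyclin-dependent kinases Cdk4 and Cdk6 and so keeps the retinoblastoma protein active, while the Arf transcript gives p19Arf, which binds Mdm2 and thereby stabilises p53. Cdkn2b encodes p15, a further inhibitor of Cdk4 and Cdk6, and Mtap encodes methylthioadenosine phosphorylase, the enzyme that recovers adenine and methionine from a by-product of polyamine synthesis. The locus is repressed by Polycomb proteins in young cells, is activated as cultured fibroblasts senesce, and is often deleted or silenced in lines that divide without limit. NIH 3T3 is a line generally described as lacking Cdkn2a.

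In GRCm38, Mtap started at chr4:89137122 and ran rightward to 89181081, toward the other genes. Cdkn2a and Cdkn2b are read leftward, with the Ink4a transcript (Cdkn2a-201) starting at 89282192, the Arf transcript (Cdkn2a-202) at 89294653, which is 12461 bp farther right, and Cdkn2b at 89311039. The 250 bases just before each annotated start are printed below, each 5′ to 3′ on the strand of its gene, because the start sites are the reference points of the comparisons that follow. Capitals mark CG dinucleotides (CpG sites).
Mtap, chr4:89136872-89137121, plus strand: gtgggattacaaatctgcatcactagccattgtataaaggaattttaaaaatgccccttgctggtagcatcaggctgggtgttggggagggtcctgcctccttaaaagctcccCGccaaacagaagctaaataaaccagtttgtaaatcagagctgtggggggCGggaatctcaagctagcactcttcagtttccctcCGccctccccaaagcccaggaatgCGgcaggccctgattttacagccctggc
Cdkn2a, Ink4a start, chr4:89282193-89282442, minus strand: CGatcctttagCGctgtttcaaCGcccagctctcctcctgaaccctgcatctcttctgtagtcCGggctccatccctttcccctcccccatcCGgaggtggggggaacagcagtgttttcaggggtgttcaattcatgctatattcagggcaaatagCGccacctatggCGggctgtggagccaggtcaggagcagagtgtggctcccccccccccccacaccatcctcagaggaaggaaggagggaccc
Cdkn2a, Arf start, chr4:89294654-89294903, minus strand: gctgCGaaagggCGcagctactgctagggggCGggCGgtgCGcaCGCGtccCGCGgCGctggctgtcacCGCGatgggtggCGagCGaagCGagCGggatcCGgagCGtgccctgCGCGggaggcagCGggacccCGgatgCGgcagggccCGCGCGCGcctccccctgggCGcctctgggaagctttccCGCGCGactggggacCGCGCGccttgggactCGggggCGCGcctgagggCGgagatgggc
Cdkn2b, chr4:89311040-89311289, minus strand: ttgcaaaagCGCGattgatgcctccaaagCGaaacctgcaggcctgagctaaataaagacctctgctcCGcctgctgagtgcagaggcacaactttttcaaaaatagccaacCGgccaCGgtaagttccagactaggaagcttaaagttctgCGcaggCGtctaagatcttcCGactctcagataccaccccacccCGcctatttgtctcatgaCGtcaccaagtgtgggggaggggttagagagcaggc

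The Arf start stood apart from the others in base composition. Its 250 bases held 38 CpG sites, more than 97.4% of the 54317 transcript starts measured in the same way, and their GC content was 77.6%. The Cdkn2b, Ink4a and Mtap stretches held 11, 7 and 4 CpG sites, where the median start held 9. The starts of Arf, Cdkn2b and Mtap each lay inside a window in both tables. The Ink4a start lay in none, the nearest window being 4297 bp away at 4 h and 4039 bp away at 24 h, so no accessibility value could be given for it.

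In NIH 3T3, reads were all but missing from every window of a stretch that held both Cdkn2 genes. The windows around Mtap and on both flanks were occupied. Counts exist only inside windows, so sequence between the windows of the stretch was not measured, for example between 89311280 and 89348785. The stretch was found as the unbroken run of neighbouring windows that had a mean of at most 1 count over the 6 NIH 3T3 libraries. It held 23 windows from chr4:89250375-89387692, a length of 137318 bp, and 22 of these windows had a mean of at least 20 counts over the 6 MSC libraries. All 9 Cdkn2b windows and 7 of the 14 Cdkn2a windows were among them, none of the 49 Mtap windows was, and the other 7 windows of the run lay beyond 50 kb of the Cdkn2b start.

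The sum over the 23 windows was 2603, 2716 and 2737 counts in the MSC control libraries and 2575, 2660 and 2498 in the MSC libraries treated with CK666. In NIH 3T3 it was 7, 0 and 0 counts in the control libraries and 2, 2 and 2 in the CK666 libraries. Scaled to CPM, the count per 1000000 of a library size adjusted by TMM (a scaling that sets the bulk of windows level between libraries), this was 98.3 to 103 in the MSC controls and 83.5 to 91.5 in the MSC libraries treated with CK666, against 0 to 0.281 in NIH 3T3. The cell types did not overlap, and within MSC all 3 CK666 libraries lay below the controls.

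Of the 138 values that 23 windows and 6 NIH 3T3 libraries make, 132 were 0 and the other 6 were 2 or 3 counts. The summed CPM was 1209-fold lower in the NIH 3T3 controls than in the MSC controls (95% exact interval 586.5 to 3008), and 987-fold lower after CK666 (453 to 2691). The windows were picked for their low counts in these same libraries, so both folds and intervals describe the stretch and test nothing, and the intervals cover counting error only. Most small counts were even (67.2% of all values from 1 to 10 in the 4 h table were), and since values then move in steps of 2 the intervals are too narrow. For the same reason the lower bounds of folds given below, set at 3 counts over a group, are too high to be firm.

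**Figure D1:**
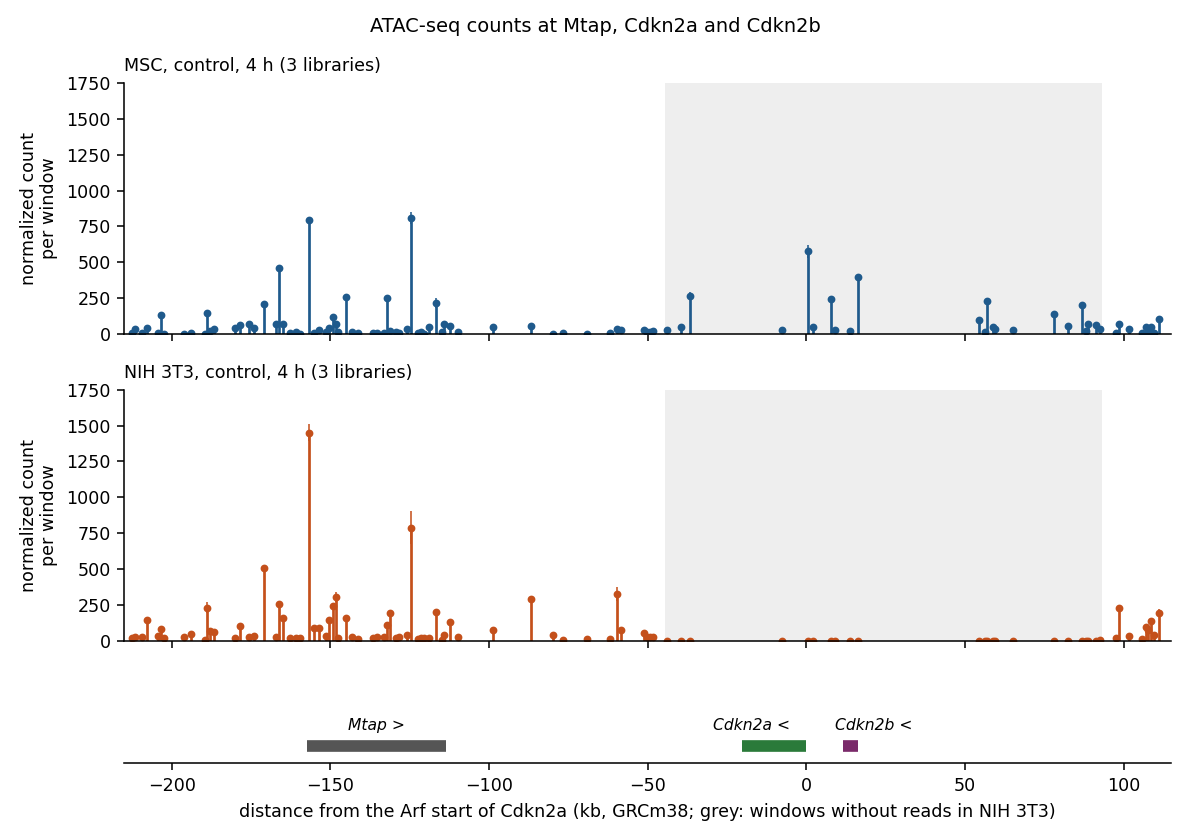
Normalised counts of each window by distance from the Arf start in kb, for the MSC controls (top) and NIH 3T3 controls (bottom) at 4 h; points and stems are means of 3 libraries, thin bars the SD, and gene bodies are drawn below with arrows for their direction. Inside the grey stretch MSC windows carry reads and NIH 3T3 windows stay at 0 to within the scale of the plot, while the Mtap windows carry reads in both.

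The window over the CpG-rich Arf start held the most reads of the stretch in MSC. This window, chr4:89294530-89295655, had 524, 580 and 615 counts in the MSC controls, 531, 533 and 478 in the MSC libraries treated with CK666, 2, 0 and 0 in the NIH 3T3 controls, and 0 in each NIH 3T3 library treated with CK666. It was 903-fold lower in the NIH 3T3 controls (interval 250 to 7462), and at least 394-fold lower after CK666, a bound set at 3 counts over the group.

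The Cdkn2b start came next. Its window at chr4:89310747-89311280 had 373, 395 and 409 counts in the MSC controls and 385, 377 and 407 after CK666, against 0, 0 and 0 in the NIH 3T3 controls and 0, 0 and 2 after CK666. Among controls it was at least 412-fold lower in NIH 3T3.

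Windows away from the starts behaved in the same way. An intergenic window between Cdkn2a and Cdkn2b, chr4:89302077-89302593, had 235, 242 and 243 counts in the MSC controls and 0 in all 6 NIH 3T3 libraries, at least 252-fold lower among controls. An intergenic window upstream of Cdkn2b, chr4:89351424-89351967, chosen after its values were seen, had 233, 231 and 225 counts in the MSC controls and likewise 0 in all 6 NIH 3T3 libraries. Of the 23 windows, 17 held no read in any NIH 3T3 library. Among the 20 windows at 0 in the NIH 3T3 controls, the lower bound of the fold ran from 12.3 to 412, with a median of 51.3, and it followed the MSC count.

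Windows this empty were rare elsewhere. Of the 202225 windows of the 4 h table with an MSC mean of at least 20, 262 had an NIH 3T3 mean of at most 1 (0.13%). Of the 63696 such windows that were called lower in the NIH 3T3 controls, the median NIH 3T3 mean was 16.3 counts, the 5th percentile was 5 counts, and 0.411% had a mean of at most 1. The 262 windows formed 172 runs of neighbours, of which 138 were a single window, and the run at Cdkn2a and Cdkn2b, with 22 windows of this kind, was the longest by number of windows. The next was a run of 13 windows on chromosome 14 (44185262 to 44683754), which at 498493 bp spanned more bases. Further runs of 8 and 7 windows lay to its left on that chromosome. On chromosome Y, 5 of the 32 windows measured were empty. Counts of this kind do not read the DNA itself, and missing DNA cannot be told apart from DNA closed in every cell by them alone.

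The edges of the stretch were set by the nearest windows with reads. On the left, toward Mtap, the window at chr4:89246121-89246747 had 20, 18 and 16 counts in the MSC controls and 29, 23 and 30 in the NIH 3T3 controls, and it was not called different (log2 fold change 0.54 ± 0.38 SE, adjusted p = 0.225 by edgeR's quasi-likelihood test). The next window, chr4:89250375-89250898, had 28, 23 and 29 counts in the MSC controls and 0 in every NIH 3T3 library. The change from occupied to empty thus fell in a gap of 3627 bp in an intron of the non-coding RNA gene Gm12606, 65666 to 69294 bp past the end of Mtap.

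On the right, the last empty window was chr4:89387023-89387692, with 23, 48 and 28 counts in the MSC controls and 3, 0 and 0 in the NIH 3T3 controls. Reads resumed at chr4:89391898-89392575, which had 3, 12 and 7 counts in the MSC controls and 18, 27 and 21 in the NIH 3T3 controls. This gap was 4205 bp long and lay in an intron of the non-coding RNA gene Gm12609, 76653 to 80859 bp from the Cdkn2b start. With both gaps counted, the stretch was 145150 bp at most. The 100 bases of the 4 edge windows that face the gaps are shown because they bound where the change occurred, and they are all on the plus strand of GRCm38, with no base in capitals.
Last window with reads, left, chr4:89246648-89246747: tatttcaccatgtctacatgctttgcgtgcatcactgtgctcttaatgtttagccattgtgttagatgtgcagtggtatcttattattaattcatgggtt
First window without reads, left, chr4:89250375-89250474: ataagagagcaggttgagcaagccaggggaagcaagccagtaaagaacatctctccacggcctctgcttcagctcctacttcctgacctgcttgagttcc
Last window without reads, right, chr4:89387593-89387692: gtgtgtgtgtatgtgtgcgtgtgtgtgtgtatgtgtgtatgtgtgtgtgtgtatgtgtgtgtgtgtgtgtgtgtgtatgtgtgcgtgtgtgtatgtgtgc
First window with reads, right, chr4:89391898-89391997: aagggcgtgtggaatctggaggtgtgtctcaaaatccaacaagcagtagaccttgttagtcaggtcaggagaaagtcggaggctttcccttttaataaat

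Both inner stretches were soft-masked over 100% of their bases, meaning that the reference marks them as interspersed or simple repeats, and both outer stretches over 0%. Repeats were not a general property of the empty windows. Soft-masked bases made up 3.8% to 64.4% of each of the 23 windows, with a median of 18.5%, and 20 of them were under 50%.

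The flanks were occupied and, on the whole, held more reads after scaling in NIH 3T3. These counts do not read the DNA itself, so more copies of it cannot be told apart from more open chromatin. A window was called when its adjusted p was under 0.01 and its fold was over 2. Within 1 Mb on the left, 166 of 351 tested windows were called higher and 11 lower in the NIH 3T3 controls, with a median log2 fold change of 1.20, and on the right 69 of 159 were higher and 2 lower, with a median of 1.42. None of the 153 windows on the left and none of the 46 on the right with an MSC mean of at least 20 was empty in NIH 3T3. Most tested flank windows fell below that MSC mean. A window can owe its place to peaks called in NIH 3T3, which would favour higher counts there, and this was not tested. The lowest NIH 3T3 window means on the 2 sides were 7.83 and 8 counts. Over all 368794 tested windows the median was 0.02. Of the 37 neighbouring genes listed, 10 had a tested window at a start site. Hacd4, which takes part in lengthening fatty acids, was lower in NIH 3T3 (31.4 ± 6.51 against 209 ± 14.9 normalised counts, SD, n = 3, where normalised counts are brought to the mean TMM-adjusted library size of the fit), while Gm13271 and Gm13275 were higher.

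Among all 72 member windows, 22 were called higher in the NIH 3T3 controls, where 16.2% of all tested windows were, and 21 were called lower, where 18.3% were. After CK666 in both cell types 27 were higher (18.4% of all windows) and 22 lower (17.3%). The genes divided these calls unevenly. All 9 Cdkn2b windows and 7 of the 14 Cdkn2a windows were lower in both comparisons, and these are the 16 member windows of the empty stretch. Of the 49 Mtap windows, 19 were higher and 5 lower among controls and 25 were higher and 6 lower after CK666. In a bulk library, fewer cells with an open window cannot be told apart from a less open window in every cell.

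When libraries were scaled by their total counts alone, 27 member windows were higher and 19 lower among controls, and over all windows the split moved from 59582 higher and 67482 lower to 76762 and 52993, with the median log2 fold change rising to 0.25. After CK666 the members became 34 and 18, and all windows went from 67986 and 63629 to 99304 and 44707. The differences at Mtap below are relative to the scaling used, whereas the counts of the empty stretch are given unscaled.

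Summed over its 49 windows, Mtap had 160, 168 and 160 CPM in the MSC controls and 228, 217 and 229 in the NIH 3T3 controls. After CK666 it had 158, 149 and 143 in MSC and 190, 218 and 202 in NIH 3T3. The NIH 3T3 libraries were all above the MSC libraries in these sums. The 49 windows had a median log2 fold change of 1.03 among controls and 1.20 after CK666, beside 0.02 and 0.10 over all windows, and close to that of the flanks.

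**Figure D2:**
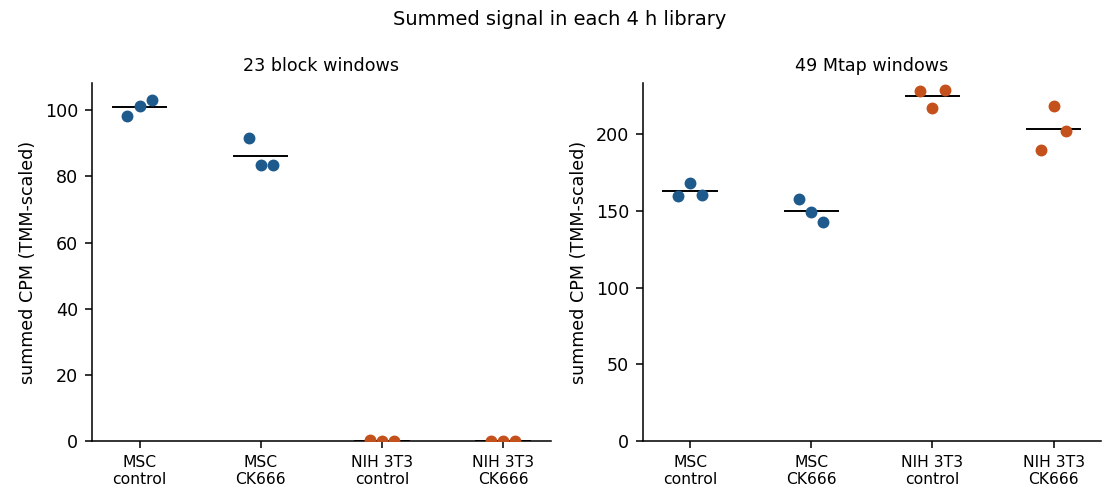
CPM of each of the 12 libraries at 4 h, summed over the 23 windows of the empty stretch (left, called block) and over the 49 Mtap windows (right), with 1 point per library and a line at the mean of each group. The NIH 3T3 libraries sit at 0 to 0.281 for the stretch and at 190 to 229 for Mtap, and the MSC libraries at 83.5 to 103 and 143 to 168.

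The Mtap start window, chr4:89136835-89138741, had 769, 810 and 784 counts in the MSC controls and 1393, 1602 and 1525 in the NIH 3T3 controls. After normalisation these were 795 ± 15.2 and 1451 ± 57 (SD, n = 3), a log2 fold change of 0.87 ± 0.10 SE (adjusted p = 6.97e-13), which stayed under the fold limit. With CK666 the log2 fold change was 0.92 (adjusted p = 1.21e-13). With scaling by total counts alone both values, 1.10 and 1.26, passed the limit.

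The Mtap window with most reads in MSC behaved differently. It lay in an intron, at chr4:89169609-89170172, and had 781, 855 and 770 counts in the MSC controls against 797, 752 and 884 in the NIH 3T3 controls, groups that overlapped (log2 fold change -0.04, adjusted p = 0.748). The 5 Mtap windows called lower had log2 fold changes of -1.58 to -1.14 among controls, and the largest rise, at chr4:89163042-89164055 and so picked by its value, was 3.35.

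Between Mtap and the empty stretch, 7 Cdkn2a windows held reads in both cell types. Their summed raw counts were 124 to 165 in the MSC libraries and 312 to 590 in the NIH 3T3 libraries. The intergenic window chr4:89234396-89235528, chosen after its values were seen, had 28, 29 and 37 counts in the MSC controls and 349, 325 and 333 in the NIH 3T3 controls (log2 fold change 3.36, adjusted p = 4.04e-29). Its rise was the largest of these 7, and the groups did not overlap.

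In MSC the drugs changed few windows of the locus, and none of its start windows passed the limits. The fit for 24 h tested 49 of the 52 member windows and the fit for 4 h tested 57 of 72 (13 for Cdkn2a, 9 for Cdkn2b and 35 for Mtap), the rest having too few reads. After 24 h of CK666, 1 window was lower and none was higher, where 1.06% and 1.88% of all 300323 tested windows were. After 24 h of CytoD, 2 were lower and none was higher, where 1.4% and 0.98% were. CytoD also went with a marker of another cell type. Adgre1, a macrophage gene, had 49.8 ± 9.40 normalised counts at its start after CytoD and 15.7 ± 3.5 in the controls (SD, n = 3, log2 fold change 1.63, adjusted p = 0.000246). The 2 haematopoietic markers with a start window, Adgre1 among them, summed to 3.67 to 5.35 CPM after CytoD and 2.52 to 3.90 in the controls, while Ptprc, Spi1, Itgam, Cd3e and Tyrobp had no start window. Their part in the CytoD calls was not tested.

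No member window was called between CK666 and CytoD at 24 h (2.14% of all windows were higher and 1.14% lower), and none was called for CK666 against control at 4 h (0.59% and 0.427%). DESeq2 also called none in these comparisons at the same limits. At an unadjusted p under 0.05 by edgeR, 8 of 49 member windows passed between the drugs (16.3%, beside 23.7% of all windows) and 15 of 57 for CK666 at 4 h (26.3% beside 19.1%). Against control at 24 h, 19 of 49 passed for CK666 (38.8% beside 20.7%) and 11 of 49 for CytoD (22.4% beside 22.6%). The median log2 fold change of the tested members was -0.12 for CK666 at 24 h, -0.20 for CytoD, 0.02 between the drugs and -0.18 for CK666 at 4 h, beside 0.02, 0.04, -0.03 and 0.00 over all windows. These medians depended on single libraries. For CK666 at 24 h the median was 0.0077 without the third control, -0.052 without the third CK666 library and -0.072 without the second, and for CytoD it was -0.087 without the third control. Between the drugs it ran from -0.015 without the first CK666 library to 0.11 without the second, and for CK666 at 4 h it was -0.11 without the second CK666 library. The 24 h comparisons share libraries, CK666 and CytoD being set against the same controls.

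The centers of the 3 called windows are printed, 300 bases each on the plus strand of GRCm38, because they carry the only calls in MSC. Capitals mark matches on either strand to the core letters of motif families of fibroblast enhancers: TGANTCA for AP-1, GGAATG or CATTCC for TEAD, and TTGCNNAA or TTNNGCAA for C/EBP.
Cdkn2a, lower with CK666 at 24 h, chr4:89302176-89302475: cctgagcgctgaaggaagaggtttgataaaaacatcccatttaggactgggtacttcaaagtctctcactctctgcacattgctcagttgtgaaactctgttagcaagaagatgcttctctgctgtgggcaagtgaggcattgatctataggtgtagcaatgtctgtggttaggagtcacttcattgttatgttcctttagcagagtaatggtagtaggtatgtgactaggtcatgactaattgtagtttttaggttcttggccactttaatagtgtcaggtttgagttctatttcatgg
Mtap, lower with CytoD at 24 h, chr4:89149277-89149576: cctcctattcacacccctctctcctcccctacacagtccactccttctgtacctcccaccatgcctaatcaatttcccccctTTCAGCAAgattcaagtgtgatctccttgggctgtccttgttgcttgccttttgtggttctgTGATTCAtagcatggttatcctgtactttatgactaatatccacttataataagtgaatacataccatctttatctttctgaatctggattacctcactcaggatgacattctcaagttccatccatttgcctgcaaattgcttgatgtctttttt
Cdkn2b, lower with CytoD at 24 h, chr4:89348845-89349144: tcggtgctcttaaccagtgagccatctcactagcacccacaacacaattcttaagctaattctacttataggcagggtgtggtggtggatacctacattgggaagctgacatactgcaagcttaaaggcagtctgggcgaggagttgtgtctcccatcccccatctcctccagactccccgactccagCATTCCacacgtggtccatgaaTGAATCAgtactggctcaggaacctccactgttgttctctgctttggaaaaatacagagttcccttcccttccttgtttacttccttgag

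The Mtap center held 1 AP-1 and 1 C/EBP match, the Cdkn2b center 1 AP-1 and 1 TEAD match, and the Cdkn2a center none. Matches are frequent, since 21.0% of 305923 window centers of this length held AP-1 letters, 19.9% TEAD letters and 14.2% C/EBP letters.

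The window lowered by CK666 lay between Cdkn2a and Cdkn2b, in intergenic sequence 5′ of Arf, at chr4:89302053-89302600. It had 71.4, 120 and 101 normalised counts in the controls, 33.7, 37.4 and 49.1 after CK666 and 78.9, 76.5 and 59.4 after CytoD. All CK666 libraries were below all controls. The log2 fold change was -1.30 ± 0.22 SE (adjusted p = 4.95e-06). CytoD against control gave -0.48 (adjusted p = 0.152), and CK666 against CytoD gave -0.83 (adjusted p = 0.00876), below the fold limit. At 4 h the matching window had 251, 255 and 260 normalised counts in the controls and 174, 155 and 124 after CK666, again without overlap and again lower, by a log2 fold change of -0.76 (adjusted p = 3.95e-06) that missed the fold limit. This is one of the windows that held no read in any NIH 3T3 library.

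Of the windows lowered by CytoD, the first lay in an intron of Mtap at chr4:89149135-89149719, 61.2% of it soft-masked. It had 44.2, 116 and 90.3 normalised counts in the controls, 34.4, 41.3 and 41.2 after CytoD and 56.2, 44.4 and 43.2 after CK666. The CytoD libraries were all below the controls, although the first control stood well under the other two. The log2 fold change was -1.12 ± 0.25 SE (adjusted p = 0.000768). Without that low control, CK666 too was called lower at this window (-1.12, adjusted p = 0.000284), and without the second control neither CytoD call held. At 4 h CK666 had 158, 164 and 176 against 284, 252 and 286 in the controls, a log2 fold change of -0.72 (adjusted p = 3.69e-06) that missed the fold limit.

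The other window lowered by CytoD was intergenic, upstream of Cdkn2b at chr4:89348649-89349341. It had 50.7, 41.8 and 35.8 normalised counts in the controls, 17.8, 14.6 and 20.1 after CytoD and 23.4, 29.6 and 28.5 after CK666. Both drug groups lay below the controls without overlap, but CytoD alone was called (log2 fold change -1.26 ± 0.34 SE, adjusted p = 0.00634), CK666 giving -0.64 (adjusted p = 0.219). The call was lost when any of the 3 CytoD libraries, the first control or the second control was left out, with log2 fold changes of -1.40 to -1.16 and adjusted p from 0.0141 to 0.0329, and with scaling by total counts alone (-1.18, adjusted p = 0.0128).

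**Figure D3:**
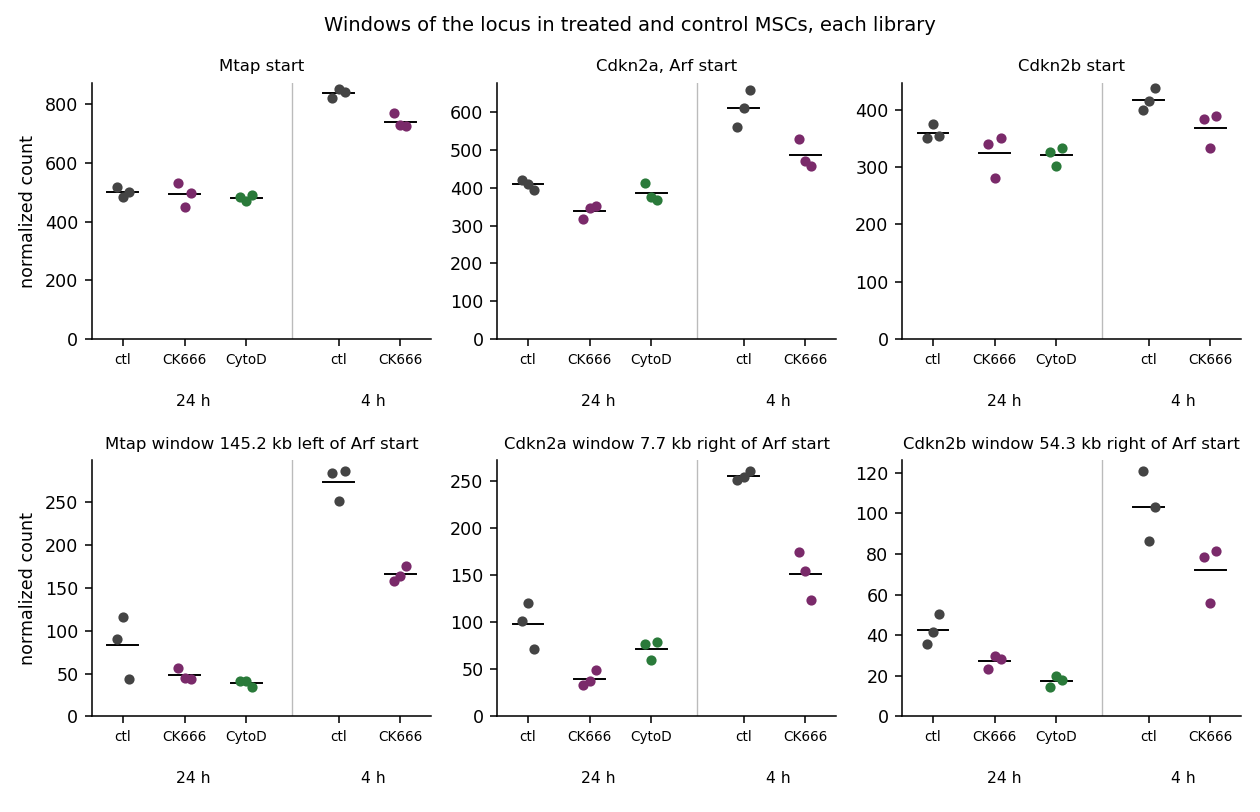
Normalised counts of each MSC library at 24 h (control, written ctl, CK666 and CytoD) and at 4 h (control and CK666) for the 3 start windows (top) and the 3 windows called lower at 24 h (bottom), with 1 point per library and a line at the mean; the times were scaled separately. The start windows sit between 280 and 531 at 24 h, and in each called window the drug group that was called lies wholly below the controls.

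The start windows differed little between treatments. The Arf start window at 24 h, chr4:89294528-89296296, had 395, 411 and 421 normalised counts in the controls, 317, 347 and 352 after CK666 and 367, 413 and 376 after CytoD. The CK666 libraries lay below the controls, with a log2 fold change of -0.27 ± 0.10 SE that did not pass the test (adjusted p = 0.0598), while CytoD gave -0.09 (adjusted p = 0.636). At 4 h the Arf start had 560, 610 and 659 in the controls and 528, 471 and 458 after CK666 (-0.33 ± 0.08 SE, adjusted p = 0.00303), a change that passed the p limit and not the fold limit.

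The Cdkn2b start window, chr4:89310352-89311363, had 355, 374 and 351 normalised counts in the controls, 341, 280 and 351 after CK666 and 333, 326 and 302 after CytoD (log2 fold changes -0.16 and -0.17, adjusted p = 0.419 and 0.332). The Mtap start window, chr4:89136837-89138453, had 501, 483 and 517 in the controls, 531, 451 and 499 after CK666 and 491, 483 and 469 after CytoD (-0.02 and -0.06, adjusted p = 0.933 and 0.755). Neither was called at 4 h, with log2 fold changes of -0.18 for both (adjusted p = 0.258 and 0.104).

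Changes under the fold limit were present elsewhere at Mtap. The intronic window with most MSC reads, chr4:89169629 at its left end in the 24 h table, had 516, 602 and 601 normalised counts in the controls and 440, 465 and 438 after CytoD (log2 fold change -0.36, adjusted p = 0.00396). A window in an exon of the non-coding gene Gm12602, left end 89128073, chosen after its values were seen, had 312, 315 and 348 in the controls, 552, 450 and 493 after CK666 and 331, 328 and 280 after CytoD. It was higher with CK666 (0.61, adjusted p = 1.66e-06) and not with CytoD (-0.06, adjusted p = 0.771), and CK666 and CytoD differed (0.68, adjusted p = 2.04e-07), but the fold stayed under the limit.

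**Figure D4:**
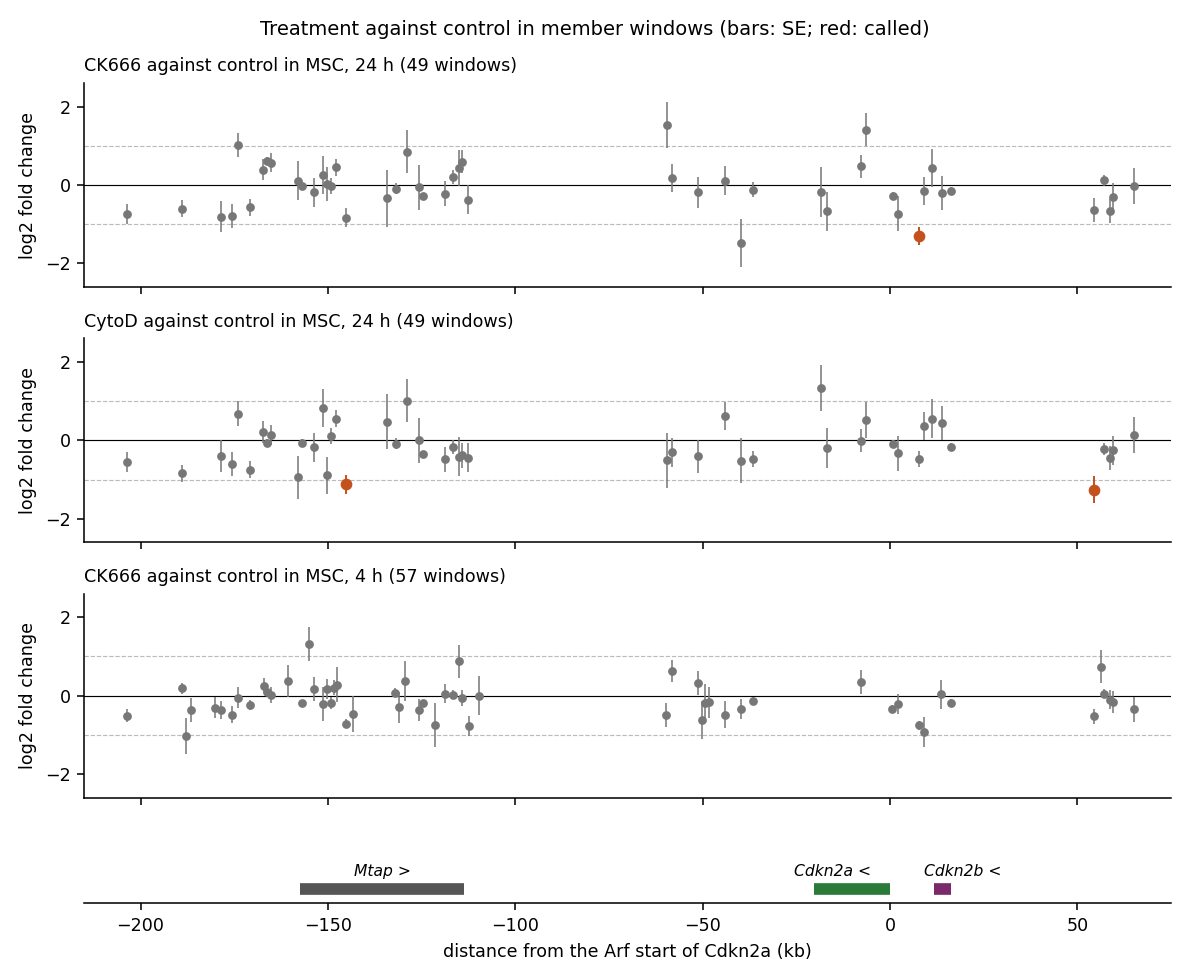
Log2 fold changes with SE bars of the tested member windows in MSC, by distance from the Arf start in kb, for CK666 and CytoD against control at 24 h and CK666 against control at 4 h. Dashed lines mark the fold limit of 2 in each direction, the 3 windows called lower are red, and the grey windows past a line have wide SE bars and did not pass the test.

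The genes that act with these proteins were followed at their start windows, in lists drawn up from textbook roles. Of all 16511 tested windows with a protein-coding start, 6.3% were higher and 17.7% lower in the NIH 3T3 controls. On the Ink4 to retinoblastoma axis, with 13 genes and 18 windows, 2 windows were lower and none higher. Rb1, the retinoblastoma protein that p16 and p15 keep active, had 332 ± 16.8 normalised counts in NIH 3T3 and 963 ± 60.3 in MSC (SD, n = 3, log2 fold change -1.54, adjusted p = 2.16e-22), and a start of Ccnd3, cyclin D3, had 64.5 ± 13.4 against 224 ± 24.5. After CK666, Ccnd2 (cyclin D2) and E2f3, a cell cycle transcription factor, were lower as well, making 4 windows lower and none higher, where 17.1% of all starts were lower and 7.36% higher. The E2f3 call was lost without the first MSC CK666 library or the first or the third NIH 3T3 CK666 library (-0.99 to -0.92), and both it and the Ccnd2 call were lost with scaling by total counts alone.

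On the Arf to p53 axis, with 12 genes and 15 windows, 2 windows were lower and 1 was higher. Both lower windows belonged to Bbc3, the p53 target that promotes cell death, with log2 fold changes of -1.29 and -1.26. The higher window was a start of Cdkn1a, the p53 target p21, with 50 ± 17.3 against 22.6 ± 6.98, and the call was lost without the third MSC control (0.99, adjusted p = 0.0154) or the second NIH 3T3 control (0.86, adjusted p = 0.0432). The Cdkn1a start with most reads gave -0.47 and was not called. After CK666 1 window, of Bbc3, was lower and none higher, and it missed the fold limit with scaling by total counts alone (-0.90).

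Of 22 known regulators of the locus, 20 had a tested start, in 24 windows, with 3 lower and 1 higher among controls. Ets2, an activator of Ink4a, was lower (418 ± 12.9 against 1205 ± 55.5), as were Ets1, also an activator, whose call was lost with scaling by total counts alone (-0.92), and Cbx7, a Polycomb repressor. Bmi1, the Polycomb repressor best known for silencing this locus, had 138 ± 18.7 normalised counts in NIH 3T3 and 9.06 ± 4.55 in MSC at a minor start (log2 fold change 3.90, adjusted p = 3.11e-21), and 1079 ± 168 against 1452 ± 51.9 at its main start, which was not called. After CK666 2 windows were higher, in Bmi1 and Cbx7, and Ets2 was lower. Cbx7 has more than 1 start window. Its start at chr15:79933531-79934237 was not the one called lower among controls and was not called there in the main fit. It was called higher among controls when the 6 control libraries were fitted alone (log2 fold change 1.44) and with scaling by total counts alone (1.63). Whether CK666 changed Cbx7 in NIH 3T3 was not tested.

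Of 10 methionine salvage and polyamine genes, which share the pathway of Mtap, Odc1, the enzyme that starts polyamine synthesis, was lower among controls (-1.08), a call lost with scaling by total counts alone, and none was called after CK666. In MSC no window of these 4 lists was called for CK666 at 24 h (0.552% of all starts were higher and 0.222% lower), for CytoD at 24 h (0.258% and 0.186%) or for CK666 at 4 h (0.169% and 0.0941%). The only call among them was between the drugs, where 0.468% of all starts were higher with CK666 and 0.222% lower, and the start of Kdm6b, a demethylase that removes the Polycomb mark, was higher with CK666 than with CytoD (132 ± 38.8 against 58.2 ± 15.4 normalised counts, log2 fold change 1.19, adjusted p = 1.34e-05). Without the third CK666 library this call was lost (0.94, adjusted p = 0.00452, under the fold limit), and without the second CK666 library or the first control Kdm6b was also called higher with CK666 than in controls (1.03 in both).

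Markers of the cell types were checked at their starts. Of 12 mesenchymal markers, 9 had a start window at 4 h, and their summed CPM was 118 to 137 in MSC and 88.0 to 110 in NIH 3T3, with Nt5e, Eng and Ly6a having none. The windows did not move in 1 direction. Of the 12 start windows, 3 were called higher in the NIH 3T3 controls (Thy1, Lepr and a start of Pdgfra) and 1 lower (Cxcl12), with a median log2 fold change of 0.10, and after CK666 5 were higher and 1 lower, with a median of 0.39. Cxcl12 had the largest difference in counts, with 173 ± 12 against 622 ± 31.9 normalised counts, and Thy1 had 70.1 ± 14.8 in the NIH 3T3 controls against 0.67 ± 1.17 in the MSC controls. The 2 haematopoietic markers with a window summed to 3.56 to 8.08 CPM at 4 h, and neither was called between the cell types in the main fit. With scaling by total counts alone, Adgre1 was called higher in NIH 3T3 among controls (log2 fold change 1.02) and after CK666 (1.11). The 3 endothelial markers with a window, of 4, summed to 3.13 to 7.83 at 4 h, with Pecam1 having none, and Kdr was lower in NIH 3T3 (27.3 ± 7.86 against 79.7 ± 11.0 normalised counts among controls).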

How the data were processed

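The authors processed paired-end reads with PEPATAC, bowtie2 and MACS2 on mm10, merged peaks across replicates and deposited raw counts per window and library; their versions are not stated in the sources consulted. The windows of the 2 tables were built separately, so tests stayed within a table. Windows were assigned to genes on GRCm38 with GENCODE vM21, and sequences were read from that genome.

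Windows passing filterByExpr were tested with edgeR 4.0.16 (quasi-likelihood test, TMM scaling, R 4.3.3), with Benjamini-Hochberg adjustment over all tested windows: one fit of the 12 libraries at 4 h, one of the 9 MSC libraries at 24 h and one of the 6 MSC libraries at 4 h. Windows named by rule were the start windows, those called in a treatment comparison, the one of each member with most MSC reads and the edges of the empty stretch, and of each list the 3 called windows of largest change. Folds of windows without reads used raw counts over TMM-adjusted library sizes. p-values measure the spread between these libraries, which may be technical. The test was checked on simulated data. DESeq2 1.42.0, total-count scaling, no filter, a 10 kb rule, a replicate block and leaving out each library were alternatives. The members and lists were chosen with earlier results of these data known.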

Additional observations from a re-analysis of the deposited data

How the results depend on the processing

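The empty stretch kept its 23 windows and its length of 137318 bp when each of the 12 libraries was left out in turn. With a required MSC mean of 50 counts, 11 of its windows qualified and 95 did in the whole table. With a required NIH 3T3 count of exactly 0, 167 windows qualified in the whole table and the stretch gave no value, since the Arf window has 2 reads in 1 library. With an allowed mean of 3 counts, 792 qualified. With the members limited to windows within 10 kb of a start, NIH 3T3 against MSC gave 8 higher and 8 lower among controls, 7 higher and 9 lower after CK666, and CytoD gave 0 lower. Scaling by total counts alone left CytoD with 1 lower. Leaving out 1 library gave 19 to 23 higher and 20 to 22 lower among controls, 22 to 28 and 20 to 22 after CK666, 1 to 2 lower for CK666 at 24 h and 0 to 2 lower for CytoD at 24 h. CytoD fell to 0 without the second control (Mtap window -0.84, adjusted p = 0.0593, Cdkn2b window -1.29, adjusted p = 0.02), and without the first CytoD library another Mtap window was lower (left end 89105384, -1.01, adjusted p = 0.0049). Libraries of the same replicate number did not deviate together (correlations of -0.072 to 0.028), so the numbers were not taken as pairs. With a replicate block, 1 window became higher with CK666 at 24 h, at Mtap (left end 89120268, log2 fold change 1.08, adjusted p = 0.00978), and no other named window changed its call. Over all windows, scaling by total counts alone turned the CytoD split from 2944 higher and 4207 lower to 3823 and 2961, and that of CK666 against CytoD from 6421 and 3418 to 5165 and 4443. NIH 3T3 against MSC over all windows was 64623 higher and 63302 lower when the 6 control libraries were fitted alone, and after CK666 the lower calls outnumbered the higher ones when any CK666 library of either cell type or the second NIH 3T3 control was left out (for example 55745 higher and 58958 lower without the first MSC CK666 library). No named window that was called changed its sign. The cause of these moves was not tested. Depth limits the low windows (a group at 0 was set at a floor of 3 counts, and a fold that rests on 2 or 3 counts has a wide interval), and the edges can be placed only to the gaps between windows.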
